A study of Mus musculus with 6 samples.

Results

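Toll-like receptors, C-type lectins, Siglecs and NOD-like receptors are the sensors by which innate immune cells read microbial and self molecules. The genes described here were taken by symbol: every Tlr, Clec, Siglec, Nod1, Nod2 and Nlrp gene of the count table, with the adaptors Myd88, Ticam1 and Ticam2. The rule found 60 of 20071 genes, namely 12 Toll-like receptors, 3 adaptors, 28 C-type lectins, 7 Siglecs and 10 NOD-like receptors. No measured value entered the rule.

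Toll-like receptors are membrane proteins that bind lipopeptides, lipopolysaccharide or flagellin at the cell surface, or nucleic acids in endosomes, and signal through the adaptors Myd88 and Ticam1. C-type lectins bind sugars and other ligands, and many of them carry either an activating or an inhibitory cytoplasmic signal. Siglecs bind sialic acid, and NOD-like receptors are cytosolic sensors, of which Nlrp3 nucleates an inflammasome. In bone marrow, these receptors are best known from macrophages and other myeloid cells, although stromal cells carry some of them.

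The cells were mesenchymal stem cells (MSCs) from the femurs of 6-week-old mice of a C57BL/6J background, kept for 7 days in osteogenic medium with 50 µg/mL ascorbic acid, 5 mM beta-glycerophosphate and 100 nM dexamethasone. Control libraries, called WT, came from Pcif1fl/fl mice, in which loxP sites flank exons 5, 6 and 7 of Pcif1, the gene for the enzyme that methylates a first adenosine of capped mRNA to m6Am. The other libraries, called CKO, came from Prrx1-Cre;Pcif1fl/fl littermates, whose recombinase is driven in limb mesenchyme and not in blood cells. There were 3 libraries of each genotype by their labels, while the series' design text speaks of biological duplicates. How many separate mice or cultures stand behind n = 3 is therefore not known, and SDs, SEs and p-values measure the spread between these libraries. The comparison asks which genes differ when Pcif1 is deleted in the Prrx1 lineage.

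Libraries held from 20258209 to 28227696 counts. Pcif1 itself lay at 42.8, 41.7 and 39.3 CPM (counts scaled to library size) in WT replicates 1 to 3 and at 39.1, 37.8 and 39.7 CPM in CKO replicates 1 to 3, so that the groups overlapped. A count over the whole gene includes exons outside the deleted part, and exon counts were not analysed here, so the deletion was not checked. WT replicate 3 stood apart: it differed from the other WT libraries by a chi-square of 82.9 and 98.6 per gene, against 2.83 to 10.1 for the other pairs within a genotype, and 3.63% of its counts were mitochondrial, against 1.40% to 1.57% in the other 5. Results are therefore also given without it.

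The label of the cells was checked against markers. The 12 mesenchymal markers include the collagen genes Col1a1, Col1a2 and Col3a1. They summed to between 9588 and 12632 CPM in WT and between 15497 and 16676 CPM in CKO. Without these 3 collagen genes the sums were 924 to 1049 CPM in WT and 1202 to 1243 CPM in CKO. At an adjusted p under 0.05, 5 of the 12 were higher in CKO, beside 2.88% of all genes tested. Lower were 2, Eng (log2 fold change -1.11) and Pdgfra (-0.42), beside 4.51% of all genes. The 21 macrophage markers summed to between 35091 and 38064 CPM in WT and between 35447 and 39086 CPM in CKO. Lyz2, the lysozyme of macrophages, held between 21968 and 26218 CPM. Csf1r, the receptor for the macrophage growth factor, held 1089 to 1243 CPM in WT and 940 to 1001 CPM in CKO. Its CKO libraries all lay below its WT libraries (log2 fold change -0.26, SE 0.09, adjusted p = 0.14). Of the 20 macrophage markers tested, 6 lay above in every CKO library, where 15.0% of all genes did so. RNA of macrophage markers was therefore abundant in all 6 libraries, beside that of mesenchymal markers. In such bulk samples, fewer cells of a type and less RNA per cell cannot be told apart.

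**Figure D1:**
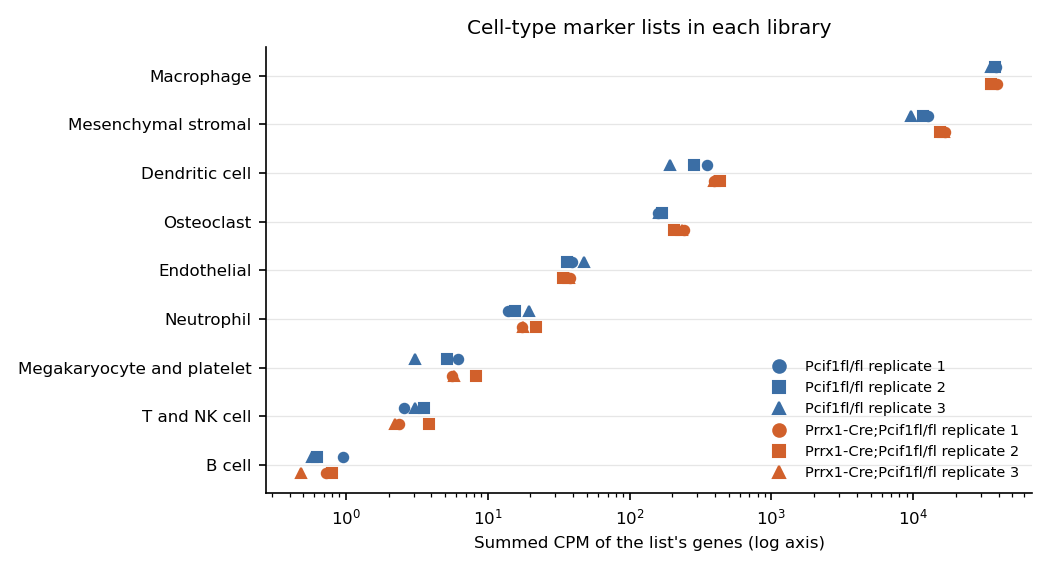
Summed CPM of each cell-type marker list (log axis) in the 3 WT libraries (Pcif1fl/fl, blue) and the 3 CKO libraries (Prrx1-Cre;Pcif1fl/fl, orange), with replicates 1 to 3 as circle, square and triangle. The macrophage sums of the genotypes overlap, and the mesenchymal, dendritic and osteoclast sums of CKO lie above those of WT.

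Macrophage sums overlapped between the genotypes, also without Lyz2 (12277 to 13126 CPM in WT and 12377 to 13480 CPM in CKO). Of the 20 macrophage markers tested, 2 were higher in CKO at an adjusted p under 0.05 by edgeR and 3 by DESeq2, which added Itgam, and 0 were lower by either. By edgeR, 2.88% of all genes tested were higher and 4.51% lower at that threshold. The 2 were Fcgr1, a high-affinity antibody receptor (log2 fold change 0.89, SE 0.14, adjusted p = 0.0060), and Cx3cr1, the fractalkine receptor (1.24, SE 0.27, adjusted p = 0.029). Timd4, a marker of resident macrophages, had at most 1 count. Dendritic markers summed to 349, 285 and 191 CPM in WT replicates 1 to 3 and to 392, 435 and 392 CPM in CKO replicates 1 to 3, nearly all of it from Bst2 and Irf8, while the defining Flt3 had at most 5 counts and Xcr1 at most 7. Among the 4 dendritic genes tested, Itgax was higher (1.06, SE 0.21, adjusted p = 0.018) and Zbtb46 lower (-1.31, SE 0.31, adjusted p = 0.041). Osteoclast markers summed to 160 to 170 CPM in WT and 205 to 243 CPM in CKO, with 0 of 5 tested genes past the threshold by edgeR, 2 at an unadjusted p under 0.05, where 21.4% of all genes tested were, and 1 (Atp6v0d2, higher) by DESeq2. Neutrophil markers summed to at most 21.8 CPM, with Mpo, Ly6g, Ngp and Retnlg at 3 counts or fewer in every library. S100a8 was higher in CKO (1.45, SE 0.34, adjusted p = 0.039) at low counts, 14, 8 and 14 in WT and 31, 27 and 23 in CKO. Of the 4 neutrophil genes tested, 3 had a positive log2 fold change and 1, Camp, a negative one (-0.59, SE 0.58, adjusted p = 0.61). Of these 5 marker calls, that of Fcgr1 held whichever library was left out, while those of Cx3cr1, Itgax, Zbtb46 and S100a8 were each lost without WT replicate 1, WT replicate 2 or CKO replicate 1, and 3 of these 4 also without CKO replicate 2 (all but Itgax) and 3 without CKO replicate 3 (all but Cx3cr1), with adjusted p from 0.056 to 0.16. B cell markers summed to at most 0.960 CPM, T and NK cell markers to at most 3.83 CPM, platelet markers to at most 8.21 CPM and endothelial markers to between 34.0 and 48.1 CPM. What part these markers have in the differences given below was not tested. Shares of the macrophage sum are given below as a description only. That sum overlapped between the genotypes, so a share repeats the difference in CPM. Most of the sum was Lyz2, so a share does not describe subsets of myeloid cells.

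Of the 60 genes, 37 passed the filter on low counts and were tested, as were 13733 genes in all, with edgeR's quasi-likelihood test and Benjamini-Hochberg adjustment over all of them. At the study's thresholds, a log2 fold change of 1 or more in size with an adjusted p under 0.05, 1 gene was lower in CKO, the C-type lectin Clec10a, beside 2.50% of all genes tested. Likewise 1 was higher, the Siglec Siglecg, beside 1.03% of all genes. At the same adjusted p with any fold change, 2 were lower, Clec10a and Clec4a1, beside 4.51% of all genes, and 2 were higher, Siglecg and Clec12a, beside 2.88%. With so few called, these shares lie near the background and give no account of the group as a whole. For all of these calls, genotype cannot be told apart from a difference in sex-linked RNA, whose values are given with the X-linked receptors. Across the 37, the median log2 fold change was -0.021, beside 0.0017 for all genes, and 35 lay within 1 of 0. Every CKO library lay below every WT library in 4 of the 37, where 15.7% of all genes did so, and above in 8, where 15.0% did so.

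The 60 genes together held 3443, 3507 and 4197 CPM in WT replicates 1 to 3 and 3819, 4238 and 3718 CPM in CKO replicates 1 to 3, from 0.344% to 0.424% of a library. These sums overlapped. Siglec1 alone made up 30.6% to 39.7% of them. Levels between genes were compared as mean CPM per kb of exon over the 6 libraries. On that scale Clec4d led with 266 CPM per kb, followed by Siglec1 with 186, Clec4n with 169, Tlr13 with 95, Tlr7 with 92.6 and Tlr8 with 53.9. Clec4a1 (28.7), Tlr4 (23.9), Myd88 (23.2), Tlr2 (22.3) and Clec2d (21.1) came next. Clec14a, Clec2g and Nlrp10 closed the order of tested genes with 0.217 to 0.224 CPM per kb.

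**Figure D2:**
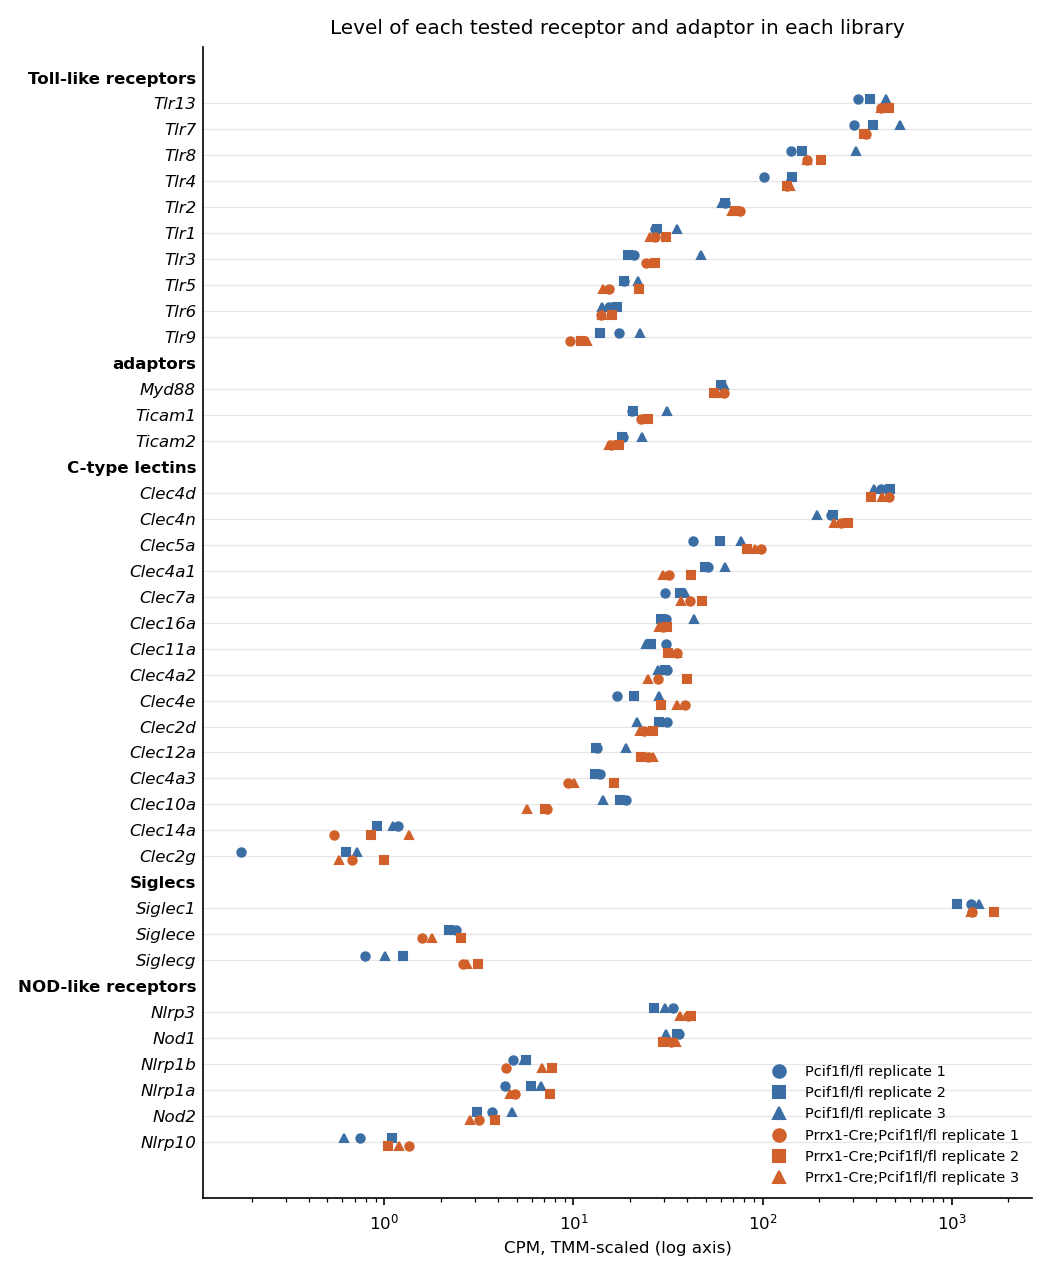
CPM of each of the 37 tested genes in each library (log axis), by family and ordered by mean CPM, with WT in blue and CKO in orange and replicates 1 to 3 as circle, square and triangle. Siglec1 lies highest, between 1073 and 1683 CPM, and for Tlr3, Tlr7 and Tlr8 the WT triangle (replicate 3) lies to the right of all other points.

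The promoters of these genes were searched for the sites of 3 kinds of factor that act in myeloid cells. RefSeq promoters on GRCm38.p6, 250 bases before to 50 bases after each start, were at hand for 47 of the 60 genes, in 56 windows. No window was given for Clec10a, Clec1a, Clec2f, Clec3b, Clec4a4, Clec4n, Nlrp10, Siglec1, Siglec15, Siglecl1, Ticam2, Tlr4 and Tlr7. The letters GAGGAA, the core of the site of the myeloid factor PU.1, searched on both strands, occurred in 29 of the 56 windows (51.8%) and in 28.3% of all 32851 windows. AAANNGAAA, the core of the interferon-stimulated response element, occurred in 17 windows (30.4%) and in 10.6% of all, among them those of Tlr2, Tlr3, Tlr6, Myd88, Clec7a, Clec4d and Nlrp3. GGAANTTCC, a kappaB core, occurred in 0 of 56 and in 0.928% of all. A match describes letters and not binding. The stretches with GAGGAA or its reverse TTCCTC (capitals) are shown for the called genes that have a window, each read on the plus strand.
Clec12a, chr6:129350178-129350207, 61 and 47 bases before the start: aatatGAGGAAgaaaagtgTTCCTCtttca
Clec4a1, chr6:122921626-122921671, 217 and 187 bases before the start: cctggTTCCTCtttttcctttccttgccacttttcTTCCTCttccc
Siglecg, chr7:43407993-43408037, 241 and 212 bases before the first start: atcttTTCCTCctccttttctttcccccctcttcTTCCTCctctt
Clec12a and Siglecg, higher in CKO, and Clec4a1, lower in CKO, thus each carried the letters 2 times. The stretch of Clec12a lies in an exon of a longer annotated transcript, and those of Clec4a1 and Siglecg lie before the annotated gene.

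PCIF1 acts on mRNAs whose first base is A, and the first base of each RefSeq start was therefore read, a look chosen after seeing the data. Starts in the table are annotated and were not measured in these cells. It was A in 15 of the 56 windows (26.8%) and in 34.4% of all windows. Of the 30 tested genes with a window, 7 started with A at every start, 2 at some and 21 at none. The median log2 fold change was -0.063 in the 7 and -0.073 in the 21, and over all genes tested it was -0.0044 for 2601 genes with A at every start and 0.0057 for 7050 with none. The called genes with a window, Tlr2 and Myd88 are shown from 25 bases before to 4 bases after the first base, which is in capitals, in the direction of the transcript.
Clec4a1, chr6:122921823-122921852, plus strand: tcatgctgtactctcagaggtacttGccca
Clec12a, chr6:129350219-129350248, plus strand: tcttgtctgaggcaataaactgactGtggc
Siglecg, first start, chr7:43408214-43408243, plus strand: agcatctaaagaaaagccccaacctAtatt
Siglecg, second start, chr7:43408255-43408284, plus strand: aggtccccaggccaggcatagctctGttcc
Tlr2, chr3:83841604-83841633, minus strand: ttcggggccctgacctggggacatcCcctt
Myd88, chr9:119340014-119340043, minus strand: aggggctggcaggagacttaagggaAgtag
Clec4a1 and Clec12a, which changed in opposite directions, both start with G, Siglecg starts with A at 1 of 2 starts, and Myd88, with a log2 fold change of -0.06, starts with A. Whether the first base has a part in any of these changes was not tested.

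Clec10a (ENSMUSG00000000318, chromosome 11 from 70156197 to 70170834, GRCm38) encodes the macrophage galactose-type lectin, an endocytic receptor used as a marker of alternatively activated macrophages. Its level was 19.1, 17.6 and 14.3 CPM in WT replicates 1 to 3 and 7.24, 7.06 and 5.67 CPM in CKO replicates 1 to 3. The highest CKO library lay well under the lowest WT library. The mean was 17 ± 2.47 CPM in WT and 6.66 ± 0.859 CPM in CKO (SD, n = 3 each), a log2 fold change of -1.35 (SE 0.17, adjusted p = 0.0020), or 0.393 of the WT level. Without WT replicate 3 the change was -1.46. As a share of the summed macrophage markers, Clec10a held 0.0501%, 0.0469% and 0.0406% in WT and 0.0185%, 0.0199% and 0.0158% in CKO. These shares stayed apart as the CPM did, since the sum itself overlapped between the genotypes. Its neighbouring paralog Mgl2 had 4, 6 and 4 counts in WT and 0, 2 and 1 in CKO and was not tested.

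Clec4a1 (ENSMUSG00000049037, chromosome 6 from 122921848 to 122934619), of the dendritic cell immunoreceptor family, held 51.5, 49.7 and 63.7 CPM in WT replicates 1 to 3 and 32.1, 41.9 and 29.7 CPM in CKO replicates 1 to 3. The groups did not overlap, and WT replicate 3 was the highest library. The log2 fold change was -0.67 (SE 0.16, adjusted p = 0.039), for a gene whose shown start is a G. The call was lost (adjusted p of 0.065 to 0.17) when WT replicate 1, WT replicate 2, CKO replicate 1 or CKO replicate 3 was left out. As a share of the macrophage sum, it held 0.133% to 0.181% in WT and 0.0821% to 0.118% in CKO.

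Clec12a (ENSMUSG00000053063, chromosome 6 from 129342691 to 129365303), an inhibitory receptor of myeloid cells that senses uric acid crystals, moved the other way. Its level was 13.4, 13.1 and 19.0 CPM in WT replicates 1 to 3 and 24.8, 22.8 and 26.3 CPM in CKO replicates 1 to 3, without overlap. The log2 fold change was 0.70 (SE 0.16, adjusted p = 0.039) with 6 libraries and 0.90 (adjusted p = 1.4e-05) without WT replicate 3. Leaving out any one of the other 5 libraries ended the call, with adjusted p from 0.0998 to 0.16. Its shown promoter holds both GAGGAA and TTCCTC. Its share of the macrophage sum was 0.0350% to 0.0542% in WT and 0.0634% to 0.0735% in CKO.

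The other 12 C-type lectins tested had an adjusted p over 0.05, and 7 of the 15 in all lay without overlap between genotypes, as did 30.8% of all genes tested. Clec4e (Mincle), an activating receptor for mycobacterial glycolipid, held 17, 21 and 28.2 CPM in WT replicates 1 to 3 and 39.1, 29.0 and 35.1 CPM in CKO replicates 1 to 3. Its groups stood apart by a narrow margin, set by WT replicate 3 and CKO replicate 2, at a log2 fold change of 0.64 (SE 0.19, 95% interval 0.19 to 1.08, adjusted p = 0.094). Clec5a, an activating myeloid receptor, held 42.8 to 76.5 CPM in WT and 83.2 to 97.9 CPM in CKO (0.61, SE 0.19, adjusted p = 0.10). Both passed the adjusted threshold without WT replicate 3, Clec4e at 0.86 and Clec5a at 0.83, and by DESeq2 with all 6 libraries.

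Clec7a (dectin-1), the receptor for fungal beta-glucan, held 30.6, 36.6 and 39.0 CPM in WT replicates 1 to 3 and 41.3, 48.0 and 37.3 CPM in CKO replicates 1 to 3, with overlap (0.25, SE 0.14, adjusted p = 0.34). Clec4n (dectin-2), a receptor for fungal mannans, held 194 to 235 CPM in WT and 239 to 282 CPM in CKO (0.25, SE 0.11, adjusted p = 0.24). Clec4d, the partner of Mincle, had the highest level per length of all members and the smallest difference among these lectins: 388 to 472 CPM in WT and 373 to 465 CPM in CKO (-0.015, 95% interval -0.28 to 0.25). Clec4a1, Clec4a2, Clec4a3, Clec4d, Clec4e and Clec4n lie together on chromosome 6. Clec4a1, Clec4a2 and Clec4a3 are close paralogs, and reads shared among them would make their counts uncertain, since the counting method is not given in the sources used here. The remaining 7 lectins tested (Clec2d, Clec2g, Clec4a2, Clec4a3, Clec11a, Clec14a and Clec16a) had log2 fold changes between -0.23 and 0.53 and an adjusted p of 0.15 or more.

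Siglecg (ENSMUSG00000030468, chromosome 7 from 43408204 to 43418358) encodes an inhibitory receptor best known from B cells, where it dampens antigen receptor signals. It held 18, 34 and 28 counts in WT and 58, 63 and 57 in CKO, or 0.786, 1.25 and 1.00 CPM in WT replicates 1 to 3 and 2.61, 3.13 and 2.74 CPM in CKO replicates 1 to 3. The lowest CKO library lay above the highest WT library. The log2 fold change was 1.47 (SE 0.25, 95% interval 0.90 to 2.04, adjusted p = 0.0093). Without CKO replicate 2 the adjusted p rose to 0.053 at a log2 fold change of 1.39, which ended the call. This is the gene shown with an A at the first of its starts. The B cell markers given above had 0 of 7 genes that passed the filter, and their sum overlapped between the genotypes, at 0.573 to 0.960 CPM in WT and 0.481 to 0.796 CPM in CKO. As a share of the macrophage sum, Siglecg held 0.00206% to 0.00333% in WT and 0.00668% to 0.00884% in CKO.

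Siglec1 (CD169, ENSMUSG00000027322, chromosome 2 from 131069220 to 131086765), an adhesion receptor of marrow and lymph node macrophages, held 1260, 1073 and 1403 CPM in WT replicates 1 to 3 and 1278, 1683 and 1266 CPM in CKO replicates 1 to 3. The groups overlapped, with CKO replicate 2 the highest library (0.18, SE 0.15, 95% interval -0.16 to 0.51, adjusted p = 0.54). Siglece, an inhibitory receptor of myeloid cells, held 2.20 to 2.40 CPM in WT and 1.57 to 2.54 CPM in CKO (-0.23, SE 0.24, adjusted p = 0.63). Siglecf, a marker of eosinophils, is named here after its values were seen: it had 1 count in each WT library and 11, 3 and 14 counts in CKO replicates 1 to 3. It did not pass the filter. The summed counts, 3 in WT and 28 in CKO, gave a ratio of 11.5 after scaling for depth, with an exact 95% interval of 3.56 to 59.3 that covers counting error only.

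**Figure D3:**
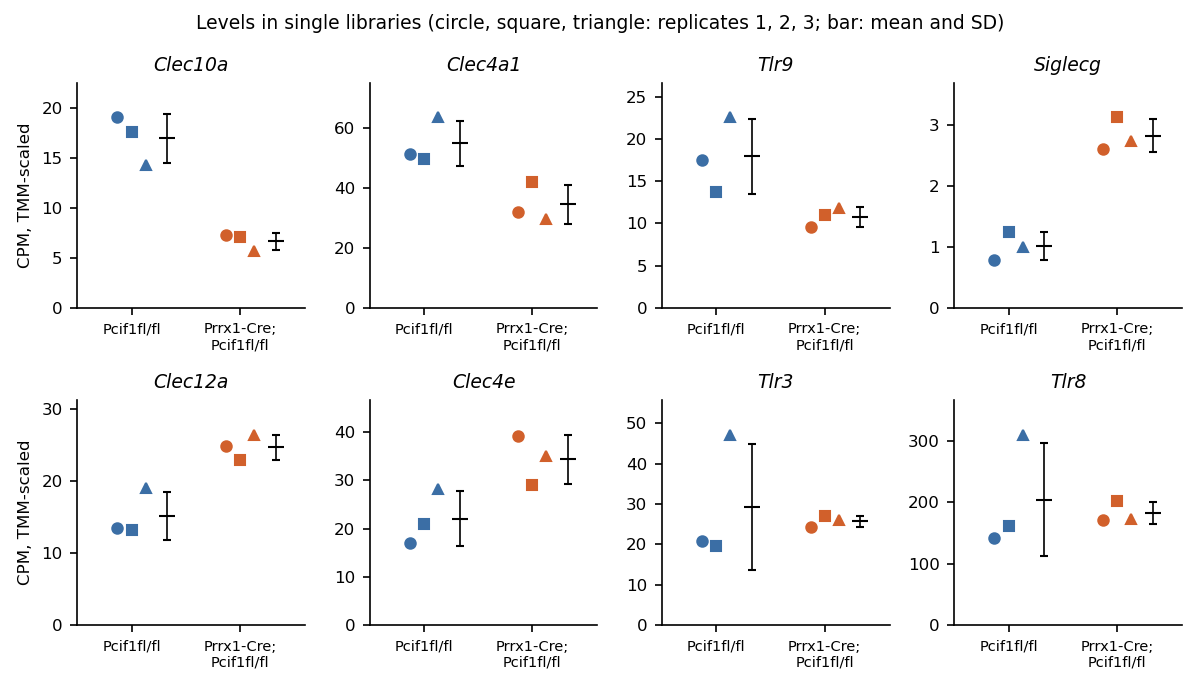
CPM of 8 genes in single libraries, with the mean and SD of each genotype (n = 3) beside the points and each axis starting at 0. Clec10a, Clec4a1 and Tlr9 lie lower and Siglecg, Clec12a and Clec4e higher in all CKO libraries, while for Tlr3 and Tlr8 WT replicate 3 (triangle) lies above the other 5 libraries.

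Of the 10 Toll-like receptors tested, 0 passed an adjusted p of 0.05 with all 6 libraries in the edgeR fit with TMM factors and the filter on low counts, 2 had an unadjusted p under 0.05 (Tlr9 and Tlr2), near the 21.4% of all genes that did, and Tlr9 was called by DESeq2 and by edgeR with total counts or with no filter. Among the surface receptors, Tlr2, the receptor for bacterial lipopeptides, held 63.0, 63.0 and 60.8 CPM in WT replicates 1 to 3 and 75.9, 71.3 and 68.6 CPM in CKO replicates 1 to 3. Its CKO libraries all lay above its WT libraries, by a small step: the log2 fold change was 0.21 (SE 0.09, 95% interval 0.01 to 0.41, adjusted p = 0.21). Tlr4, the lipopolysaccharide receptor, held 102, 144 and 142 CPM in WT replicates 1 to 3 and 134, 135 and 139 CPM in CKO replicates 1 to 3. Only WT replicate 1 lay apart, below the rest, and the log2 fold change was 0.08 (SE 0.13, 95% interval -0.23 to 0.38, adjusted p = 0.78). Tlr1 and Tlr6, which pair with Tlr2, and Tlr5, the flagellin receptor, had log2 fold changes of -0.12, -0.08 and -0.18, with overlap and an adjusted p of 0.63 or more.

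The endosomal receptors read nucleic acids. Tlr9 (ENSMUSG00000045322, chromosome 9 from 106222598 to 106226883), the receptor for unmethylated CpG DNA, held 17.5, 13.8 and 22.6 CPM in WT replicates 1 to 3 and 9.54, 11.0 and 11.8 CPM in CKO replicates 1 to 3. All CKO libraries lay below all WT libraries, at a log2 fold change of -0.74 (SE 0.19, 95% interval -1.18 to -0.29, adjusted p = 0.057). The adjusted p was under 0.05 in 5 of 13 alternatives: by DESeq2 (0.010), with total counts (0.046), with no filter (0.029), without WT replicate 2 (0.037) and without WT replicate 3 (0.011).

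Tlr3, the receptor for double-stranded RNA, held 20.9, 19.5 and 47.2 CPM in WT replicates 1 to 3 and 24.2, 27.0 and 25.9 CPM in CKO replicates 1 to 3. WT replicate 3 lay above all other libraries and the other two WT libraries below them. Hence the sign depended on that library: the log2 fold change was -0.19 (SE 0.31, adjusted p = 0.77) with it and 0.35 (SE 0.09, adjusted p = 0.015) without it. An antisense gene covers 7.32% of the exons of Tlr3.

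Tlr7 and Tlr8, receptors for single-stranded RNA, and Tlr13, the receptor for bacterial ribosomal RNA, lie on chromosome X. Tlr7 held 304, 385 and 533 CPM in WT replicates 1 to 3 and 354, 343 and 350 CPM in CKO replicates 1 to 3 (log2 fold change -0.22, SE 0.18, adjusted p = 0.54). Tlr8 held 142, 161 and 311 CPM in WT and 172, 203 and 172 CPM in CKO (-0.17, SE 0.27, adjusted p = 0.76). For both, WT replicate 3 was the highest library and lay apart from the other two, and without it the log2 fold changes were 0.02 (adjusted p = 0.89) and 0.27 (SE 0.08, adjusted p = 0.032). Tlr13 held 319, 372 and 451 CPM in WT and 425, 464 and 422 CPM in CKO (0.20, SE 0.13, adjusted p = 0.43), and 0.34 (adjusted p = 0.0037) without WT replicate 3.

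The genotypes differed in their sex-linked RNA, which touches every comparison given here. Xist, the RNA of the inactive X chromosome of female cells, held 232, 318 and 442 CPM in WT replicates 1 to 3 and 0.945, 1.79 and 0.721 CPM in CKO replicates 1 to 3. The 4 Y-linked genes were present in all 6 libraries, with every WT library below every CKO library: Ddx3y held 48.4 to 62.2 CPM in WT and 99.0 to 104 CPM in CKO, Eif2s3y 24.8 to 35.9 and 47.6 to 55.4, Kdm5d 21.4 to 31.2 and 35.2 to 39.9, and Uty 20.5 to 30.4 and 30.8 to 34.5. For any gene, autosomal or X-linked, genotype and this difference cannot be told apart.

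The adaptors differed little. Myd88, used by all Toll-like receptors but Tlr3, held 60.4, 60.1 and 62.9 CPM in WT replicates 1 to 3 and 62.7, 55.7 and 57.1 CPM in CKO replicates 1 to 3 (-0.06, SE 0.09, 95% interval -0.27 to 0.15, adjusted p = 0.74). Acaa1a runs antisense over 11.3% of its exons. Ticam1 (TRIF), the adaptor of Tlr3 and Tlr4, held 20.5, 20.5 and 31.4 CPM in WT and 22.9, 24.9 and 23.7 CPM in CKO (-0.02, SE 0.18, adjusted p = 0.96). Ticam2 (TRAM), which bridges Tlr4 to Ticam1, held 18.3, 18.1 and 23.2 CPM in WT and 15.7, 17.3 and 15.4 CPM in CKO. Its groups did not overlap (-0.30, SE 0.14, 95% interval -0.61 to 0.01, adjusted p = 0.26), and 14.5% of its exons are shared with Tmed7 on the same strand.

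Among 39 genes of Toll-like receptor co-receptors, signalling and brakes, all tested, 1 was lower at an adjusted p under 0.05 by edgeR, beside 4.51% of all genes. By edgeR 0 were higher, beside 2.88% of all genes, and by DESeq2 3 were (Irf7, Nfkbiz and Cd14). The median log2 fold change was 0.032. The lower gene was Lbp, the secreted protein that hands lipopolysaccharide to Cd14: it held 62.9, 53.8 and 64.1 CPM in WT replicates 1 to 3 and 13.8, 16.8 and 11.4 CPM in CKO replicates 1 to 3 (-2.10, SE 0.16, adjusted p = 0.00018). Every CKO library lay far below every WT library. Cd14 itself held 109, 116 and 79.2 CPM in WT and 187, 123 and 173 CPM in CKO (0.67, SE 0.19, adjusted p = 0.072), and Ly96, the lipopolysaccharide-binding partner of Tlr4, held 6.20 to 7.63 and 5.77 to 8.51 CPM.

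Of the 19 genes of C-type lectin and Siglec signalling, all tested by edgeR, 0 passed an adjusted p of 0.05, as by DESeq2. By edgeR 1 had an unadjusted p under 0.05, beside 21.4% of all genes, and the median was 0.035. Their activating chains Tyrobp (DAP12) and Fcer1g held 200 to 341 CPM and 288 to 475 CPM over the 6 libraries, and the kinase Syk held 223 to 240 CPM. Of 18 lectin receptors outside the symbol rule, 11 were tested, and 1 was higher by edgeR, beside 2.88% of all genes. It was Mrc2, a collagen uptake receptor of stromal cells. Mrc2 held 316, 299 and 247 CPM in WT replicates 1 to 3 and 409, 416 and 430 CPM in CKO replicates 1 to 3 (0.54, SE 0.11, adjusted p = 0.020). That call was lost without WT replicate 2 or any one of the CKO replicates (adjusted p from 0.060 to 0.11), and DESeq2 called 2 higher (Mrc2 and Thbd) and 1 lower (Cd248). Mrc1, the mannose receptor of macrophages, held 1633 to 1855 CPM in WT and 1582 to 2365 CPM in CKO (0.07, SE 0.16).

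**Figure D4:**
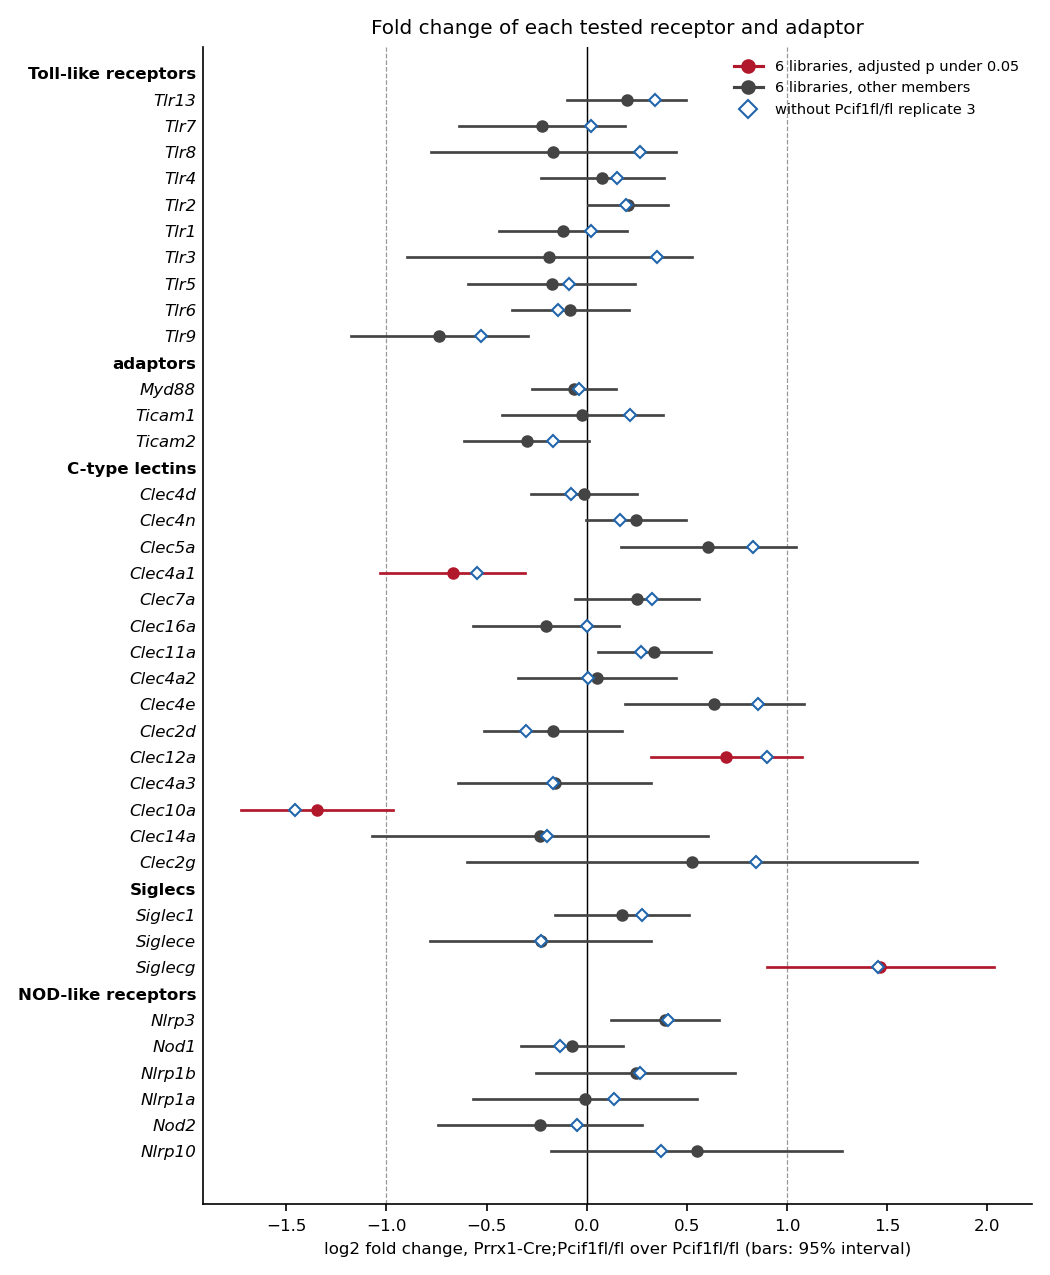
Log2 fold change of CKO over WT for each of the 37 tested genes, by family, with the 95% interval as a bar (red, adjusted p under 0.05) and the value without WT replicate 3 as an open diamond. Clec10a and Siglecg lie beyond the dashed lines at -1 and 1, and the diamonds of Tlr3, Tlr8 and Ticam1, with those of some genes nearer 0, lie on the other side of 0 from their points.

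Of the 6 NOD-like receptors tested, 0 passed an adjusted p of 0.05 by edgeR with all libraries or by DESeq2, and 1 had an unadjusted p under 0.05, beside 21.4% of all genes. Nlrp3, the inflammasome sensor, held 33.5, 26.6 and 30.6 CPM in WT replicates 1 to 3 and 40.5, 41.7 and 36.6 CPM in CKO replicates 1 to 3. The groups stood apart, at 0.39 (SE 0.12, 95% interval 0.12 to 0.66, adjusted p = 0.091), and without WT replicate 3 at 0.41 (adjusted p = 0.0087). Nod1, which senses a peptidoglycan fragment, held 31.0 to 36.1 CPM in WT and 29.8 to 34.7 CPM in CKO (-0.07, SE 0.11, adjusted p = 0.75), and Nod2, the muramyl dipeptide sensor, 3.09 to 4.73 and 2.84 to 3.83 CPM (-0.23, SE 0.22, adjusted p = 0.60). Nlrp1b held 4.80 to 5.58 CPM in WT and 4.41 to 7.66 CPM in CKO (0.24, SE 0.22, adjusted p = 0.57). Nlrp1a and Nlrp1b are close paralogs whose counts share the uncertainty named above. Of 22 tested genes of inflammasome and NOD signalling, 0 passed the threshold by edgeR and 1 (Txnip, lower) by DESeq2, 3 had an unadjusted p under 0.05, and the median was 0.089. Their adaptor Pycard held 18 to 20.8 CPM in WT and 22.2 to 25.5 CPM in CKO (0.32, SE 0.11, adjusted p = 0.15), and Casp1, the protease it recruits, 43.4 to 54.6 and 47.5 to 51.2 CPM.

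Leaving out WT replicate 3 raised the number of calls, among these receptors and among all genes. With 5 libraries and an adjusted p under 0.05 at any fold change, a setting chosen after seeing the data, 4 were lower in CKO (Clec10a, Clec2d, Clec4a1 and Tlr9), where 10.5% of the 13726 genes that pass the filter with 5 and with 6 libraries were lower. Of the 37 genes, 9 were higher in that fit (Clec12a, Clec4e, Clec5a, Clec7a, Nlrp3, Siglecg, Tlr13, Tlr3 and Tlr8), where 11.2% of those genes were higher. Of all 13905 genes tested with 5 libraries, 10.4% were lower and 11.1% higher. Siglecf is left out here, since it passed the filter with 5 libraries only through its CKO counts. Most of these changes were small, and only Clec10a and Siglecg passed a log2 fold change of 1 in size. WT replicate 3 lay over 0.5 on the log2 scale above the mean of the other two WT libraries in 9 of the 37 genes, where 10.7% of all genes did so. Tlr3 (1.2), Tlr8 (1.03), Tlr7 (0.63) and Ticam1 (0.60) led these 9.

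The other 23 genes of the 60 did not pass the filter, and the highest count among them was 14. Of these, 14 had 3 counts or fewer in every library: Clec12b, Clec18a, Clec2e, Clec2f, Clec2l, Clec4b2, Nlrp12, Nlrp4c, Nlrp4f, Nlrp6, Siglec15, Siglecl1, Tlr11 and Tlr12. The other 9 were Clec1a, Clec1b, Clec2i, Clec3b, Clec4a4, Clec4b1, Clec9a, Siglecf and Siglech. Clec9a, which marks cross-presenting dendritic cells, had at most 5 counts, and Siglech, which marks plasmacytoid dendritic cells, at most 6. In these libraries 3 counts correspond to 0.108 to 0.149 CPM. That floor is a setting and not a limit of detection, and the 14 genes at or under it in every library are given no fold change.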

How the data were processed

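Poly(A) RNA of 6 libraries, 3 of each genotype by their titles, was sequenced by the authors as 150-base pairs and mapped to mm10 with HISAT2 (FastQC and DESeq2 are also listed in the submitters' processing notes). The deposited values are raw counts of reads per gene, not normalized by the authors. The counting tool, annotation and use of strand are not given in the sources used here. The table has 20163 rows, of which 92 are second entries of an Ensembl ID with identical counts, leaving 20071 genes. Libraries held 20258209 to 28227696 counts. GENCODE release M21 (GRCm38) gave positions and exon lengths for 20059 genes.

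Counts were fitted with edgeR 4.0.16 under R 4.3.3 (TMM factors, filterByExpr, glmQLFit and glmQLFTest) over the 13733 genes that passed the filter, with no covariate and Benjamini-Hochberg adjustment over all of them. CPM are scaled by TMM factors. The SE is the log2 fold change over the square root of F, and intervals use the test's degrees of freedom. A group with 3 counts or fewer in each library was held to be at the floor. Reads carry no molecular identifiers, so intervals on counts cover counting error only. On simulated counts with 200 changed genes among 13733, edgeR called 191 of the 194 that passed the filter, with 13 false calls. How the number called depends on the size of the log2 fold change was not tested. An exact permutation test of 3 against 3 libraries cannot go below p = 0.1 and was not used. Same-numbered libraries did not deviate together (correlations of -0.050 to 0.064).

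The 60 genes, the 4 pathway lists and the 9 marker lists were chosen with earlier results of these data known. Named were the genes past an adjusted p of 0.05 at any fold, a set of well-known receptors and adaptors whatever their result, the 3 members of each family with the highest CPM, and up to 4 genes of each pathway list past the threshold. Others are named as examples of levels, after their values were seen. Alternatives were DESeq2 1.42.0, edgeR with RLE factors or total counts, limma-voom (limma 3.58.1), a minimum mean of 10 counts in place of the filter, no filter at all, a fit blocked on replicate number, another threshold and leaving out each library in turn.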

Additional observations from a re-analysis of the deposited data

How the results depend on the processing

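Clec10a was the 1 gene lower in CKO at the study's thresholds in every alternative that kept the fold threshold. With all 6 libraries and the fold threshold kept, the count of higher genes was 1, except that it was 2 (Siglecg and Siglecf) by DESeq2 and with no expression filter. Leaving out each library in turn gave 1 to 1 lower and 1 to 2 higher genes: 2 without WT replicate 3 (Siglecg and Siglecf), and without CKO replicate 2 the 1 higher gene was Siglecf, not Siglecg. With an adjusted p under 0.05 at any fold change, 2 were lower and 2 higher, and without WT replicate 3 these became 4 and 10, Siglecf among the 10. Siglecf passes the filter in leave-out fits only through its CKO counts, so its calls there give no support. With the replicate number as a replicate block the counts were 1 and 1, Clec4a1 lost its call (adjusted p = 0.068), and no other of the 4 calls changed. Of the marker and pathway genes named as called, Zbtb46 (adjusted p = 0.060) and S100a8 (0.084) lost their calls with the block, while Fcgr1, Cx3cr1, Itgax, Lbp and Mrc2 did not. The numbers are not known to pair the libraries.

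Several named genes that were not called with all 6 libraries changed sign. For Ticam1 the log2 fold change was 0.0023 by limma-voom and 0.0077 with the replicate block. Leaving out each library in turn gave -0.1256 (without WT replicate 2) to 0.22 (without WT replicate 3) for Ticam1 and -0.4085 to 0.35 for Tlr3, whose highest value was that without WT replicate 3. The same range was -0.3701 to 0.27 for Tlr8 and -0.3927 to 0.0202 for Tlr7, again with the positive value without WT replicate 3. For Tlr4 it was -0.0639 (without WT replicate 1) to 0.1617, and for Clec4d -0.0841 to 0.07. The cause was not tested. Scaling moved the median of all genes by under 0.03 on the log2 scale. Genes that did not pass the filter, Siglecf and the B cell markers among them, are limited by depth.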
